A study of Saccharomyces cerevisiae with 8 samples.

Results

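The 10 genes described here are the anaerobic cell wall mannoprotein genes DAN1, DAN4, TIR1, TIR2, TIR3 and TIR4, the sterol uptake regulators SUT1, SUT2 and UPC2, and the sterol importer AUS1 of budding yeast. They were found by name among the 6336 gene features of the arrays, and each was 1 feature printed in 2 spots. The set was chosen by gene name with the mean IP-1 over untreated log2 ratios known, in which DAN1 and SUT1 were high, so all values of the 10 genes in that contrast are given as a description, with no test. Saccharomyces cerevisiae cells of strain BY4741, mating type a, were grown in YPD, a rich medium with glucose. One culture of each pair received 10 µM Iztli peptide 1 (IP-1), a designed peptide that joins yeast alpha pheromone to an antimicrobial sequence, and the other was left without it. Pairs were harvested after 3.5, 7, 15 or 30 min. Each of the 4 spotted 2-colour arrays held 1 pair, with IP-1 cDNA in Cy5 and untreated cDNA in Cy3, and the dyes were not swapped. A dye effect on a gene and an effect of IP-1 therefore cannot be told apart.

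Yeast needs oxygen to make ergosterol. Cells that grow without oxygen take sterol up from the medium through the ABC transporters Aus1 and Pdr11, and exchange the Cwp mannoproteins of the aerobic wall for those of the DAN and TIR families. Heme and sterol supply govern this programme: in air the repressors Rox1 and Mot3 hold DAN and TIR genes down with the corepressor Cyc8-Tup1, and the activator Upc2 turns them and the importers on when sterol runs short. The cultures described here were grown in ordinary YPD, and no label names a change of oxygen or sterol.

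Replicates 1 and 2 of each exposure are the 2 spots of a gene on 1 array and were averaged, so that n is the number of arrays, 4. The spread between these arrays holds exposure, culture, labelling and hybridisation together. Log2 ratios of IP-1 over untreated were loess-normalised within each array, and the median over all 6152 features with enough signal to be tested was 0.01. The ratios of the 2 spots correlated at 0.559 to 0.908 across genes, lowest on the 30 min array. The 7 markers of a cells were above the 95th percentile of the empty spots in all 8 spots of both channels. The alpha-specific genes STE3, MF(ALPHA)1 and MF(ALPHA)2 were too, and SAG1 was in 5 of 8 IP-1 spots and 8 of 8 untreated spots. The background-subtracted intensities of the 4 alpha-specific genes summed to 565 to 1196 in IP-1 cells and 889 to 1932 in untreated cells, against 1718 to 8007 in IP-1 cells and 1859 to 4613 in untreated cells for the 7 markers of a cells. No marker of alpha cells was at 0, and their part in the results below was not tested. Whether a lower ratio stands for fewer cells with a transcript or for less RNA per cell cannot be told apart in whole cultures.

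DAN1, which encodes a GPI-anchored wall mannoprotein that aids sterol uptake in anaerobic cells, was higher in IP-1 cells at every exposure. Its log2 ratio in the first spot was 1.51, 0.64, 0.96 and 0.76 at 3.5, 7, 15 and 30 min, and in the second spot 1.45, 0.82, 0.88 and 0.73. The ratio was thus highest at the shortest exposure, and the other 3 arrays lay close together. The mean was 0.97 ± 0.35 (SD, n = 4 arrays), or 1.95-fold, which placed DAN1 at rank 10 of the 6152 features ordered from the highest mean. Background-subtracted intensities averaged over the 2 spots were 481, 430, 360 and 243 in IP-1 cells at 3.5, 7, 15 and 30 min, against 194, 309, 167 and 178.5 in untreated cells. All 8 spots of each channel lay above the empty spots' limit, which was 31.7 to 52.9 for IP-1 and 38.8 to 69.0 for untreated. DAN1 spots therefore gave signal above the empty spots in the untreated channel as well. The alpha-specific genes STE3, MF(ALPHA)1 and MF(ALPHA)2 did so too in these cells of mating type a. Passing the limit therefore does not show that the transcript was present. As deposited, with neither background subtraction nor centring, the 7 min log2 ratio was 0.02 and 0.14 in the 2 spots, on an array whose median was −0.73. The size of the 7 min value therefore rests on those steps together, and the background-subtracted intensities before any normalisation were already higher in IP-1 cells. Spots printed around DAN1 had median log2 ratios of −0.06, 0.03, −0.03 and 0.03 over the 4 exposures (46 spots). Few features had ratios like those of DAN1, so nothing is read from this, and an effect local to its own spots was not tested.

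**Figure D1:**
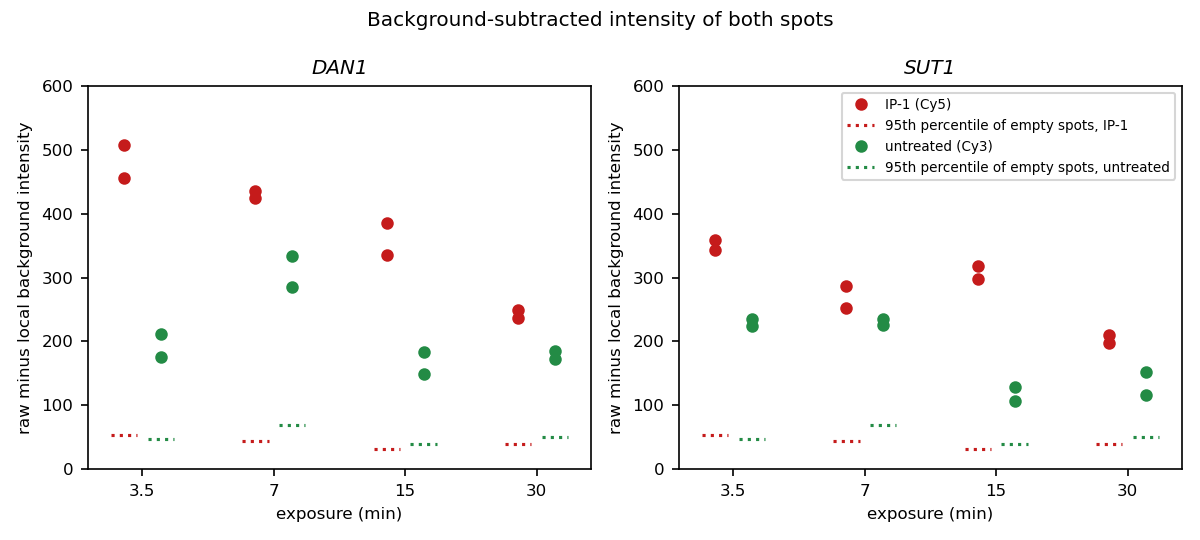
Background-subtracted intensity (raw minus local background, scanner units, linear axis) of both spots of DAN1 and SUT1 at each exposure, for IP-1 (Cy5, red, left of each pair) and untreated (Cy3, green); dotted lines are the 95th percentile of the empty spots. All spots of both genes lie above the dotted lines, and the IP-1 spots lie above the untreated spots of the same exposure.

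DAN4, the family member next to DAN1 on chromosome X, did not share this pattern. Its array log2 ratios were −0.07, −0.13, −0.27 and 0.06 at 3.5, 7, 15 and 30 min, with a mean of −0.10 ± 0.14 (SD, n = 4). All 8 of its spots in each channel were above the empty spots' limit, so its ratio near 0 rests on signal above that limit. The difference of DAN1 minus DAN4 was 1.54, 0.86, 1.18 and 0.68 over the exposures, with a mean of 1.07 ± 0.38, positive on all 4 arrays. As DAN1 was known to be high when the set was chosen, nothing is read from that sign. On the other side of DAN1 lies YJR149W, which was lower in IP-1 cells at −0.54 (limma, Benjamini-Hochberg adjusted p = 0.0142). Neither chromosomal neighbour had the ratio of DAN1, but few features did, with DAN1 at rank 10 of 6152, so nothing is read from this.

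The TIR genes encode serine- and alanine-rich wall mannoproteins, of which TIR1, TIR3 and TIR4 are needed for growth without oxygen. TIR1 had log2 ratios of 0.18, 0.19, 0.33 and 0.15 at 3.5, 7, 15 and 30 min, with a mean of 0.21 ± 0.08 (SD, n = 4), or 1.16-fold. All 8 of its spots were above 0, although the 2 spots at 15 min differed, at 0.11 and 0.56. TIR2, also known as a cold-shock gene, had 0.41, −0.03, 0.19 and 0.01, with a mean of 0.15 ± 0.20. Its arrays fell on both sides of 0, and the SD exceeded the mean. TIR3 had 0.05, 0.06, −0.20 and 0.18, with a mean of 0.02 ± 0.16. Only 3 of its 8 IP-1 spots and 4 of its 8 untreated spots passed the empty spots' limit, so the gene was at the edge of detection. TIR4 was dimmer still: 0 of 8 IP-1 spots and 1 of 8 untreated spots passed the limit, and it was left out of the test. No fold is given for TIR4, whose log2 ratios read −0.03, −0.51, 0.05 and 0.01. None of the 4 TIR genes reached 1.5-fold in both spots at any exposure.

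**Figure D2:**
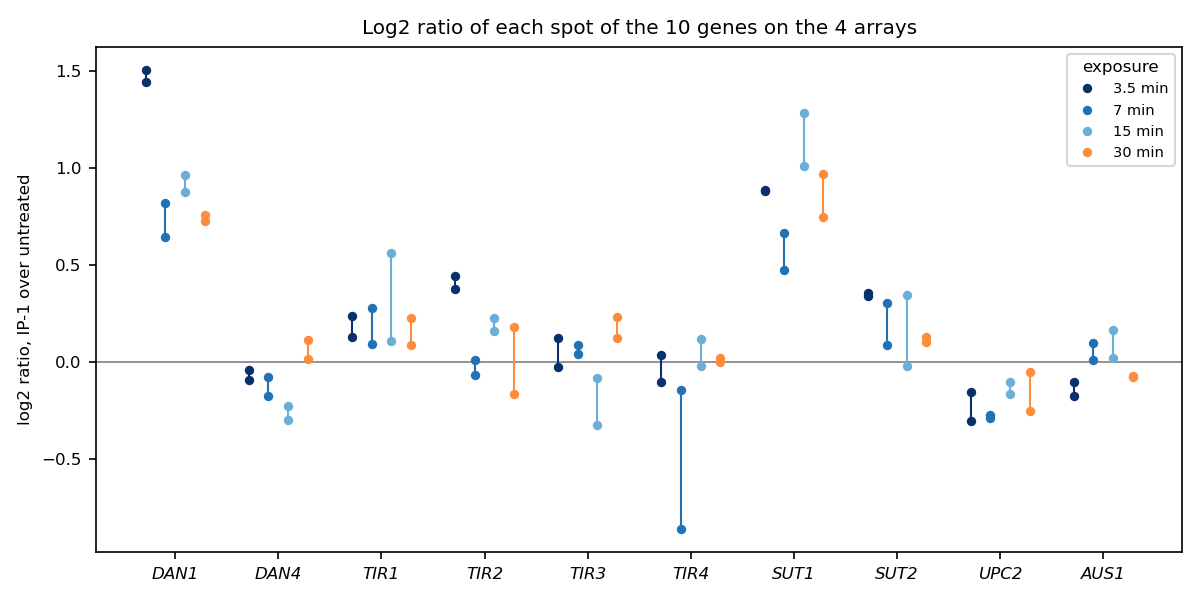
Loess-normalised log2 ratio of IP-1 over untreated (linear axis) in each spot of the 10 genes, with 1 colour per exposure and a line joining the 2 spots of an array. DAN1 and SUT1 lie above 0.47 in every spot. The spots of the other 8 genes lie nearer 0, apart from a TIR1 spot at 15 min at 0.56 and a TIR4 spot at 7 min at −0.87.

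Among the regulators, SUT1 was higher in IP-1 cells at every exposure. SUT1 encodes a zinc cluster transcription factor that promotes sterol uptake and relieves repression by Cyc8-Tup1. Its log2 ratio in the first spot was 0.89, 0.67, 1.28 and 0.75 at 3.5, 7, 15 and 30 min, and in the second spot 0.88, 0.47, 1.01 and 0.97. The highest array was that of 15 min, whereas DAN1 was highest at 3.5 min. The lowest was that of 7 min for both genes, although DAN1 was nearly as low at 30 min. The mean was 0.86 ± 0.24 (SD, n = 4), or 1.82-fold, at rank 14 of 6152. Background-subtracted intensities were 351, 269, 309 and 203.5 in IP-1 cells at 3.5, 7, 15 and 30 min, against 229, 230, 118 and 134 in untreated cells, and all 8 spots of each channel passed the empty spots' limit. The deposited values at 7 min, with neither background subtraction nor centring, were −0.11 and −0.28, on the array whose median was −0.73. The sign at 7 min therefore depends on those steps, although background-subtracted intensities before normalisation were already higher in IP-1 cells, at 269 against 230. Spots around SUT1 had medians of 0.08, 0.06, 0.14 and 0.10 over the exposures (48 spots), slightly above 0 on all arrays.

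SUT2 is the paralog of SUT1. Its log2 ratios of 0.35, 0.20, 0.16 and 0.11 at 3.5, 7, 15 and 30 min were all above 0, with a mean of 0.20 ± 0.10 (SD, n = 4), or 1.15-fold, although 1 of its 8 spots lay below 0. SUT1 minus SUT2 was 0.54, 0.37, 0.98 and 0.74 over the exposures, with a mean of 0.66 ± 0.26, positive on all 4 arrays. As SUT1 was known to be high when the set was chosen, nothing is read from that sign. UPC2, the sterol-sensing activator of the DAN, TIR and importer genes, had the opposite sign: its log2 ratios were −0.23, −0.28, −0.14 and −0.16, with a mean of −0.20 ± 0.07. All 8 UPC2 spots were below 0, but only 2 of its 8 IP-1 spots, both at 15 min, passed the empty spots' limit, against 8 of 8 untreated spots. The size of its ratio is therefore poorly measured. Of the 3 regulators, SUT1 and SUT2 were thus above 0 and UPC2 below 0 on all 4 arrays.

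AUS1, the sterol importer among the 10 genes, had log2 ratios of −0.14, 0.05, 0.09 and −0.08 at 3.5, 7, 15 and 30 min, with a mean of −0.02 ± 0.11 (SD, n = 4). It passed the empty spots' limit in 4 of 8 IP-1 spots and 8 of 8 untreated spots, and its arrays fell on both sides of 0. PDR11, the other sterol importer and its paralog, is not among the 10 genes and was brightly measured, at 376, 292, 472.5 and 222 in IP-1 cells, against 783, 542, 593 and 441 in untreated cells. PDR11 was lower in IP-1 cells on all 4 arrays, at −0.55, −0.52, −0.45 and −0.49, with a mean of −0.50 ± 0.04 (limma, adjusted p = 0.00617). Its p is 0.0685 without the 3.5 min array, 0.075 without the 7 min array and 0.0711 with the uncentred deposited ratios. AUS1 minus PDR11 was 0.41, 0.57, 0.54 and 0.42, with a mean of 0.49 ± 0.08. At 3.5 and 30 min no IP-1 spot of AUS1 passed the empty spots' limit, so on those arrays the difference is not exact. ECM22, the paralog of UPC2, was also lower, at −0.41, −0.33, −0.39 and −0.27, with a mean of −0.35 ± 0.06 (limma, adjusted p = 0.0186). None of its 8 IP-1 spots passed the empty spots' limit, against 8 of 8 untreated spots, so its ratio has only a bound. Its fitted mean was −0.62 with an offset of 10 and −0.63 with the uncentred deposited ratios (adjusted p = 0.0923), and its p is 0.0535 without replicate 2 and 0.101 and 0.108 without the 3.5 and the 7 min array.

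Over the 10 genes, 9 were bright enough to be tested, and their means had a median of 0.15, against 0.01 over all tested features. In the contrast that chose the set, 8.91% of all tested features passed an adjusted p of 0.05, with 128 (2.08%) higher and 420 (6.83%) lower in IP-1 cells, and 2 of the 9 tested genes, DAN1 and SUT1, were among them. The choice of the set fixed that count, and nothing is read from it. The median of the other 7 tested genes was 0.02, with means between −0.20 and 0.21. DAN1, TIR1, SUT1 and SUT2 were above 0 on all 4 arrays, as were 17.5% of all tested features, and UPC2 was below 0 on all 4, as were 19.4%. As deposited, the ratios are not centred, and the median of all tested features moves to −0.23. On that scale TIR1, TIR2, TIR3 and SUT2 turn negative, at −0.16, −0.13, −0.21 and −0.14, but lie at 0.07, 0.10, 0.02 and 0.09 relative to that median. DAN1 and SUT1 stay positive there, at 0.62 and 0.45, or 0.85 and 0.68 relative to the median. The histogram of means shows DAN1 and SUT1 in the sparse upper tail and the other 7 genes inside the bulk.

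**Figure D3:**
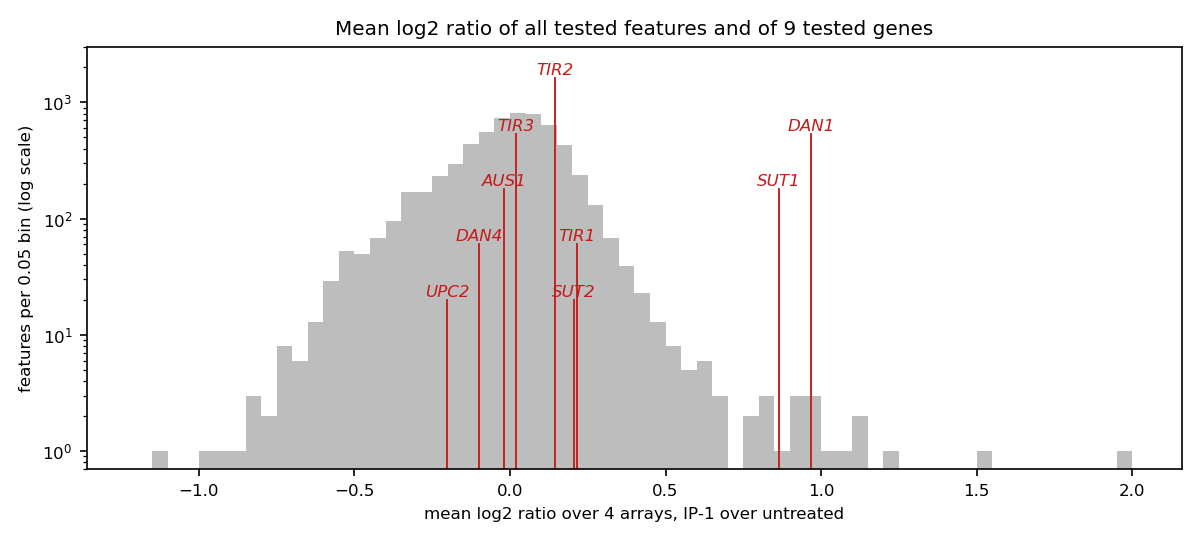
Histogram of the mean log2 ratio over 4 arrays of all 6152 tested features (bins of 0.05, log-scaled count axis), with a red line at the mean of each of the 9 tested genes; line heights only separate the names. DAN1 (0.97) and SUT1 (0.86) lie in the upper tail, and the other 7 genes lie between −0.20 and 0.21.

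At single exposures, with 1 pair of cultures each and so no test, a gene counts as past 2-fold when both of its spots are at least 1 in size on the log2 scale with 1 sign. DAN1 was past 2-fold at 3.5 min, where 19 features (0.309%) were higher and 2 (0.0325%) lower. SUT1 was past 2-fold at 15 min, where 27 features (0.439%) were higher and 54 (0.878%) lower. At 7 min 0.0488% of features were higher and 0.0325% lower, at 30 min 0.0163% were higher and 0% lower, and none of the 10 genes was among them. SUT1 stood near the limit, with its lower spot at 1.01. It drops below the limit without background correction, when loess is run within each print block, or with the deposited ratios (1.14 and 0.92). At 1.5-fold in both spots, which 2.82% of all feature and array pairs passed, DAN1 qualified at all 4 exposures and SUT1 at 3.5, 15 and 30 min, and no other gene of the set did so.

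Whether the ratios changed with exposure was tested with the slope of the log2 ratio on log2 minutes, a contrast of the arrays with each other. No feature of 6152 passed (limma, 0%), while 61 had an unadjusted p below 0.05, and none of the 9 tested genes was among those. DAN1 had the steepest slope of the 9, at −0.19 per doubling of the exposure (SE 0.088, 95% interval −0.40 to 0.01; limma, adjusted p = 1). That slope depends on the 3.5 min array, without which it was 0.01. SUT1 had a slope of 0.05 (95% interval −0.15 to 0.25), TIR2 of −0.09 (−0.26 to 0.08) and SUT2 of −0.07 (−0.21 to 0.07). The remaining slopes lay between 0.01 and 0.04, and all intervals of the 9 genes held 0. With intervals this wide, a constant ratio is not shown either. Exposures were taken from the sample labels, whereas the column headers give the 30 min array the first number and the 3.5, 7 and 15 min arrays the next ones, and no source used here says what these numbers mean.

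**Figure D4:**
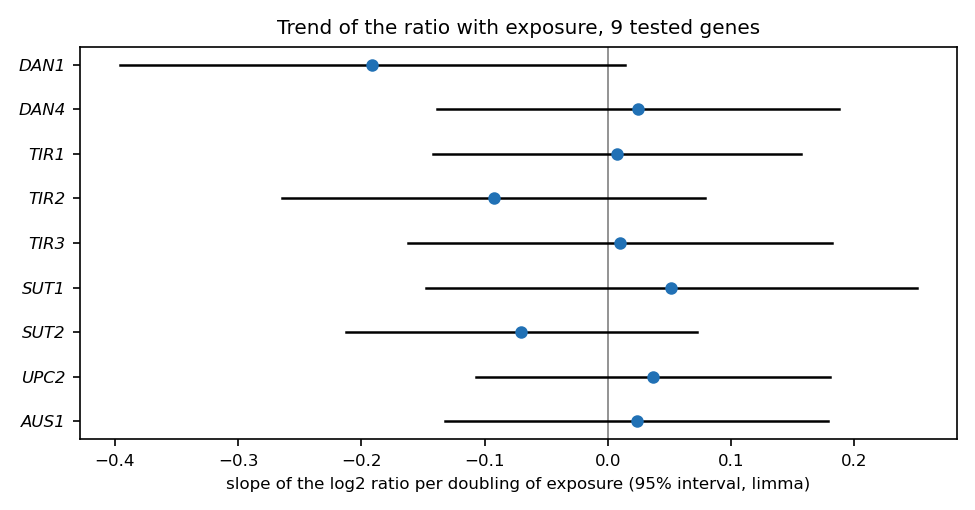
Slope of the log2 ratio of IP-1 over untreated per doubling of the exposure for the 9 tested genes (points) with the 95% interval of the limma fit (lines, n = 4 arrays). All 9 intervals include 0, and DAN1 is farthest from it at −0.19.

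The features whose 4 array ratios lay nearest to those of DAN1, by Euclidean distance over the 4 arrays, were TAX4 at 0.328, RPO21 at 0.371, YCL041C at 0.449 and SST2 at 0.483. The median distance of all tested features from DAN1 was 2.03. TAX4 had log2 ratios of 1.16, 0.78, 0.98 and 0.75, and RPO21, for an RNA polymerase II subunit, had 1.59, 0.77, 1.04 and 1.07. Like DAN1, both were highest at 3.5 min, but they were picked for their nearness to DAN1, so nothing is read from this likeness. SUT1 was nearest to SST2 at 0.354, YDL211C at 0.355, TAX4 at 0.402 and LOC1 at 0.435, with a median distance of 1.78 for all features. SST2, which ends pheromone signalling at the G protein, had 1.19, 0.51, 1.24 and 0.73. TAX4 and SST2 were on both lists, from which nothing is read, as DAN1 and SUT1 were both known to be high. These distances are over 4 arrays, on each of which all genes were read from the same pair of cultures, and are given as a description.

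Some of the 10 genes neighbour each other in the R64 annotation, whose coordinates are not those of the array probes and are not printed. TIR4, TIR2 and AUS1 lie side by side on chromosome XV, at means of 0.15 for TIR2 and −0.02 for AUS1. TIR3 and PDR11 are separated by YIL012W alone on chromosome IX and had means of 0.02 and −0.50. SUT1, on chromosome VII, lies between RAD54 at 0.00 and YIP5 at 0.13. Neither of these neighbours had the ratio of SUT1, but few features did, with SUT1 at rank 14 of 6152, so nothing is read from this.

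The other genes of the anaerobic and sterol programme were read from 6 lists drawn up with earlier results of these data known. Of 61 tested genes, 1 was higher and 5 were lower in IP-1 cells (limma, adjusted p below 0.05), against 2.08% and 6.83% of all tested features. Their median was 0.00. The 11 genes of sterol uptake, esterification and export held PDR11 as their only call, with a median of −0.07. The 9 regulators held ECM22 as their only call, with a median of 0.00, and the repressors ROX1 and MOT3 stood at 0.04 and −0.08 without passing. Of 8 other hypoxic genes 6 were tested, with a median of −0.01. OLE1, the fatty acid desaturase, was lower at −0.31 ± 0.07 (adjusted p = 0.0257), and ANB1, COX5B, CYC7, HEM13 and HMG2 lay between −0.11 and 0.13 without passing.

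Among the seripauperins, small relatives of the DAN and TIR proteins whose genes are near-identical in sequence, 5 features named a single gene and were tested. PAU2 was the only one called, at 0.34 ± 0.08 (limma, adjusted p = 0.021), and the 5 had a median of 0.18. DAN2, also among the 5, had log2 ratios of 0.04, 0.33, 0.42 and 0.20 at 3.5, 7, 15 and 30 min. Its mean was 0.25 (limma, adjusted p = 0.0831). At an unadjusted p below 0.05 in limma, 3 of the 5 were higher, against 11.9% of all tested features. A further 13 features named several genes, so that no single gene can be read from them. Of these, 2 were higher and 0 lower, those listed under PAU4 at 0.26 and PAU20 at 0.40. The lowest, listed under PAU6, stood at −0.23 without passing (limma, adjusted p = 0.0697). Of all tested features, 2.08% were called higher and 6.83% lower. Cross-hybridisation between such genes was not tested. The 7 wall mannoprotein genes of aerobic cells had a median of 0.18, and limma called none of them, while 3 were higher at an unadjusted p below 0.05, as were 731 (11.9%) of all tested features. SED1, for a major structural wall protein, had the highest mean of the 61 genes, at 0.48 ± 0.42, with 1.01, 0.28, 0.59 and 0.04 at 3.5, 7, 15 and 30 min (limma, adjusted p = 0.0694), and is named after its values were seen. CWP1 stood at 0.22 ± 0.05 (adjusted p = 0.0648), CWP2 at −0.04 ± 0.19 and TIP1 at −0.01 ± 0.11. CWP2 and TIP1 each fell on both sides of 0 over the arrays, while CWP1 was above 0 on all 4.

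The 23 genes of ergosterol synthesis had a median of 0.03. ERG4, for the last step of the pathway, at −0.46 ± 0.22 (limma, adjusted p = 0.0217), and ERG25, for C-4 demethylation, at −0.25 ± 0.08 (adjusted p = 0.0483), were lower. None of the 23 was higher, and over all tested features 6.83% were lower and 2.08% higher. PAU2, OLE1 and ERG4 do not pass when each array is centred on its median in place of loess (adjusted p = 0.082, 0.282 and 0.122), and ERG25 does not pass under 10 of the 15 alternatives. Without the 3.5 min array, or without the 7 min array, 0 of the 61 genes pass in limma, and 12 and 10 of all features pass in those fits, in which 1410 and 1180 features had an unadjusted p below 0.05.

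**Figure D5:**
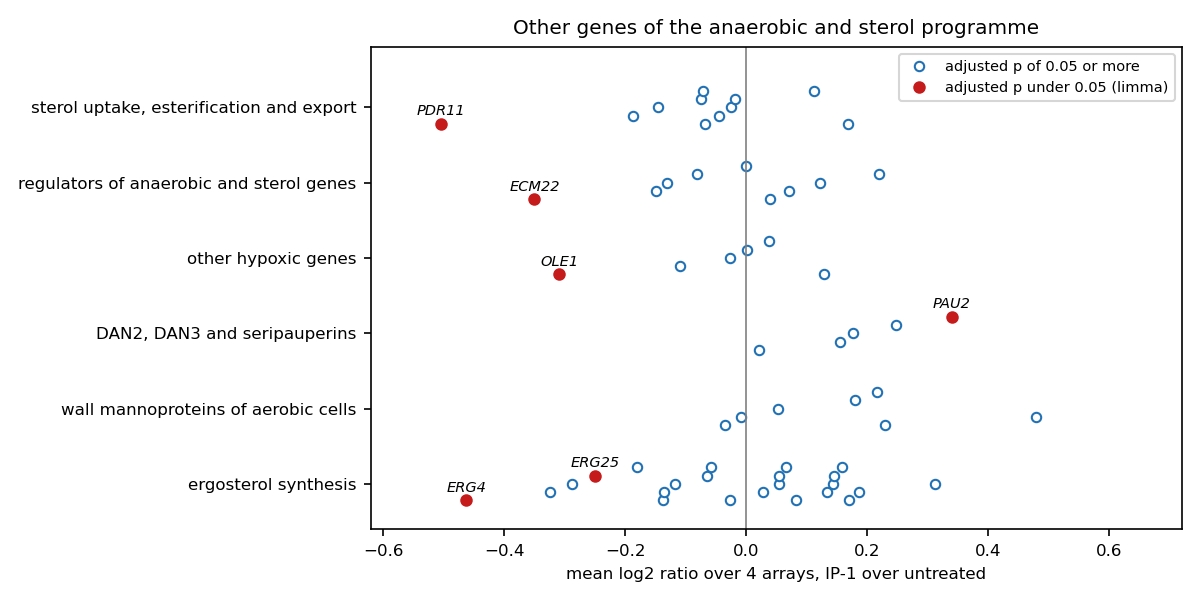
Mean log2 ratio of IP-1 over untreated (n = 4 arrays) of the 61 tested genes in 6 lists, 1 point per gene and 1 row per list; filled points passed an adjusted p of 0.05 in limma. PAU2 (0.34) is the only filled point above 0, and PDR11, ECM22, OLE1, ERG4 and ERG25 are the filled points below 0.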

How the data were processed

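Spot tables gave, per the file headers, mean raw intensities and, for the local background of each channel, its mean and SD, and these intensity columns were used as deposited. The deposited value table holds log10 ratios of raw Cy5 over raw Cy3 for each spot, neither background-subtracted nor centred; this was read from the values, which match the spot tables within 4.98e-07. No source used here names the scanner software. Intensities were corrected with normexp (offset 50), made into log2 ratios and normalised by loess (span 0.3) within each array with limma 3.58.1 in R 4.3.3. The 2 spots of a gene were averaged. A feature was tested (6152 of 6336) when, on every array, both spots exceeded the local background by 2 of its SDs in 1 channel or both, a lenient filter, since 68.1% to 88.8% of empty spots also passed it. Spots were also set against the 95th percentile of the 320 empty spots. Tests (mean against 0, and slope on log2 minutes) used lmFit and eBayes, two-sided, with Benjamini-Hochberg adjustment over all tested features, and were tested on simulated data. Whether the arrays are separate biological replicates of 1 condition cannot be said, as they differ in exposure. The tests judge a mean against the spread between arrays, and a slope against what the line leaves of it. That spread holds exposure, culture, labelling and hybridisation together.

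The 10 genes and all lists were chosen with earlier results of these data known. Named were all 10 genes, the called genes of each list (up to 4 per direction), 4 nearest features for DAN1 and for SUT1, and CWP1, CWP2, TIP1, ECM22 and PDR11 whatever their values. YJR149W, RAD54, YIP5 and further genes named as list members or neighbours were added after their values were seen. A search for promoter motifs was planned but not run, as no promoter sequence was used here. Gene names were those of the files, of which 5763 of 6336 features matched the R64 table. Files held 0 columns of other samples. Alternatives were no background correction, offset 10, median centring, the deposited ratios, other filters, 1 spot alone, each array left out, both spots with blocks, a trended prior and loess within print blocks.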

Additional observations from a re-analysis of the deposited data

Results flagged for a closer look

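Of 19 genes checked for a single array far from the other 3, TIR4 alone was singled out: the gap between its 7 min array, at −0.51, and the nearest of the other 3 was 0.851 of its whole range, above Dixon's 95% critical value. Chance alone singles out some genes at that level, and 1 of 19 was singled out here. The 2 spots of TIR4 on that array disagreed, at −0.15 and −0.87, and 0 of its 8 IP-1 spots and 1 of its 8 untreated spots passed the empty spots' limit.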

How the results depend on the processing

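The count of features passing on the mean, 548, was 263 without background correction, 304 with median centring, 59 with the deposited uncentred ratios and 10 to 575 with single arrays left out (12 for that of 3.5 min, 10 for that of 7 min). The count on the slope, 0, was 15 when the 15 min array was left out and 30 for that of 30 min. Of the 10 genes, the 2 that passed on the mean became 0 with the deposited ratios. The count was 3 with an offset of 10 (UPC2 too, lower) and 3 with the trended prior (TIR1 too, higher). With single arrays left out it was 1 to 2 (1 without the 3.5 min array and 1 without that of 7 min). These counts follow the choice of the set, and nothing is read from them. The mean of DAN1 was 0.80 to 1.11 and that of SUT1 0.73 to 1.03 over the alternatives other than the deposited ratios. UPC2 was −0.33 with an offset of 10. Counted as pairs of a gene and an exposure, the 10 genes were past 2-fold in 2 pairs, against 1 without background correction, 1 with loess within print blocks (chosen after seeing the data), 4 with an offset of 10, 4 with the deposited ratios (1 higher, and TIR3, TIR4 and UPC2 lower at 7 min, 3 pairs) and 7 at 1.5-fold. The 6 genes of the other lists became 2 with median centring, 0 with the deposited ratios and 0 to 7 with arrays left out, and their slope count, 0, was 1 (SED1) without the 15 min array. Their pairs past 2-fold numbered 0, against 1 with an offset of 10, 8 with the deposited ratios, 1 with either spot left out and 6 at 1.5-fold. Spot numbers did not pair the arrays: spot differences correlated at −0.05 to 0.03 between arrays. With the spot number as a replicate block and the array as a random block, 782 features passed on the mean and 0 on the slope. In that fit 9 genes of the other lists passed, CWP1 among them at an adjusted p of 0.047 (limma). Its means equal those of the averaged spots by construction, as every array holds both spots, so nothing is read from them. Over the alternatives, 29 calls of the 6 named genes of the other lists were lost and, among named genes, 1 call, that of CWP1, was gained. Genes not named gained calls too. In the wall mannoprotein list 1 gene other than CWP1 was higher with an offset of 10, without replicate 2, without the 30 min array, with loess within print blocks and with the trended prior. Calls rose from 1 to 2 for single-gene seripauperins without replicate 1 and with loess within print blocks, and for regulators without the 30 min array. TIP1, at −0.01, was −0.40 with the deposited ratios. Dim spots limit TIR3, TIR4, UPC2, AUS1 and ECM22.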
